A study of Mus musculus with 9 samples.

Results

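Epididymal adipose tissue (epiAT) of mice kept for 25 weeks on a high-fat diet (HFD) was compared with that of chow-fed mice by single-nucleus RNA sequencing (snRNA-seq). The comparison set library HH, from mice 31 weeks old on HFD, against library CC, from mice 26 weeks old on chow. Its members were all nuclei of both libraries with 500 to 3000 detected genes and at most 40000 unique molecular identifiers (UMIs, which count captured RNA molecules). These were 13330 nuclei in HH and 4144 in CC, 17474 of the 76356 nuclei within the same limits in the 9 libraries of the series.

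All mice were male C57BL/6J, the labels name no genotype beyond this strain, and each library pooled nuclei of 5 mice. Chow libraries C, at 18 weeks of age, and CCC, at 39 weeks, and library H, from mice 18 weeks old on HFD for 12 weeks, are given beside HH and CC. The labels call every control diet chow. By the methods of the study the controls first received a defined low-fat diet, and the mice of CC and CCC were changed to standard chow near the end. HH, H and C carried the sequencing set code S075, and CC and CCC carried S019. No chow library had both the age and the set code of HH, so diet cannot be told apart from age and set in HH against CC. Values of C hold the set code constant and those of CCC bring a chow library older than HH. A separate chow library at the age of HH was not analysed here.

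With 1 pooled library per side there was no error between mice or samples, and no test was run. Intervals are 95% intervals that cover counting error only. Shares have exact Clopper-Pearson intervals and differences of shares Newcombe intervals. Gene levels are CPM values, the UMIs of a gene scaled to a common total, summed over the nuclei of a cell class, and ratios are log2 of HH over CC with an exact conditional interval. A gene is called higher or lower where the ratio is at least 2-fold, among genes with at least 10 expected UMIs in the class in both libraries. Expected UMIs were taken at the CPM of HH and CC pooled, so the library with more UMIs in a class weighed more. In macrophage-like nuclei HH held 11206908 UMIs and CC 1336108, and in adipocyte-like nuclei 1787306 and 4045318. Genes high in the library with more UMIs passed more readily, and counts of higher and lower genes carry that tilt. A level of 0 UMIs was set to 3 UMIs for a ratio, which is then an approximate bound that its interval can pass.

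White adipose tissue stores triglyceride in adipocytes, which share the tissue with progenitors that can become adipocytes or lay down matrix, with vessels, mesothelium and resident immune cells. Perivascular macrophages (PVMs) line vessels in lean tissue and carry scavenger receptors. Lipid-associated macrophages (LAMs) gather around dying adipocytes in obese tissue, where they take up and break down lipid through lysosomes. Non-perivascular macrophages (NPVMs) are marked by major histocompatibility complex (MHC) class II genes, which present antigen to T cells.

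The libraries differed in more than diet. HH had 14833 barcodes and 44579308 UMIs and CC had 5173 barcodes and 31387832 UMIs. Barcodes within the limits on genes and UMIs had medians of 2159 and 3089 UMIs. Barcodes above 3000 genes made up 6.92% of HH and 19.9% of CC. Malat1, a nuclear long non-coding RNA, took 8.68% and 4.96% of the UMIs of barcodes within the limits. Doublet calls removed 781 nuclei of HH and 137 of CC, and 109 of HH and 385 of CC fell in mixed clusters of low UMI count that were set apart, which left 12440 and 3622 nuclei in clusters. HH and CC shared 22 barcodes.

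Signal of other cell classes also differed between the libraries inside each class. The 12 adipocyte markers summed to 5550 CPM in macrophage-like nuclei of CC and to 352.6 CPM in those of HH. In progenitor-like nuclei the same sums were 5947 and 1359 CPM, and in adipocyte-like nuclei themselves 22447 and 24310 CPM. The 15 macrophage markers ran the other way, with 570.6 CPM in progenitor-like nuclei of CC and 3251 CPM in those of HH, and 355.5 and 1433 CPM in adipocyte-like nuclei. None of the 12 adipocyte or 15 macrophage markers was at 0 in adipocyte-, progenitor-, mesothelial- or macrophage-like nuclei of either library. In endothelial-like nuclei the adipocyte sums were 5876 CPM in CC and 1107 CPM in HH and the macrophage sums 477.1 and 3768 CPM, with 2 macrophage markers at 0 in CC. The part of this signal in the differences below was not tested, and a gene is named below as a leading gene of a class only where its level there was at least 2 times that over the other nuclei of the library in which it was higher.

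**Figure D1:**
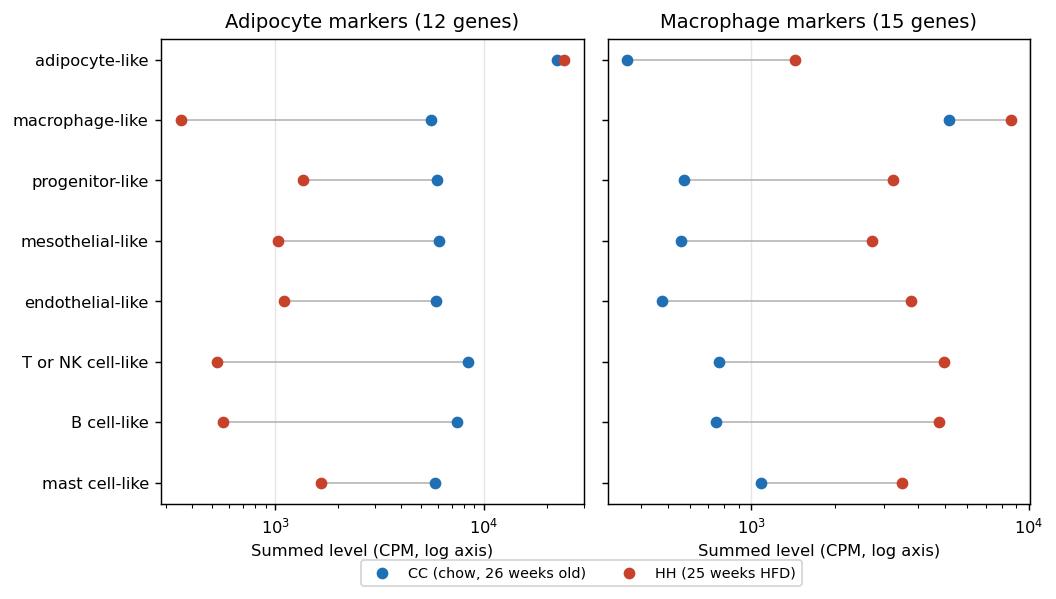
Summed CPM of the adipocyte markers and of the macrophage markers in each cell class, on a log axis, with 1 point for HH and 1 for CC per class. Outside adipocyte-like nuclei the adipocyte sums of CC lie above those of HH (5550 against 352.6 CPM in macrophage-like nuclei), and the macrophage sums of HH lie above those of CC in each class drawn.

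Across 7794 genes measured in all 5 classes examined, 475 were called higher in HH in every one of them and 39 lower in every one. Of the 475, 178 (37.5%) had their highest HH level in macrophage-like nuclei, and of the 39, 20 (51.3%) had their highest CC level in adipocyte-like nuclei. Among the 6133 genes called lower in no class, 16.7% had their highest CC level in adipocyte-like nuclei. Among the 5196 genes called higher in no class, 26.0% had their highest HH level in macrophage-like nuclei.

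In percentage points, the largest differences in composition were in macrophage-like and adipocyte-like nuclei. Macrophage-like nuclei, named from genes such as Adgre1 (F4/80) and Csf1r, made up 40.4% of the nuclei of HH in clusters and 12.5% of those of CC, a difference of 27.9 percentage points (26.5 to 29.2). They made up 13.8% of C, 8.90% of CCC and 49.9% of H, so both HFD libraries lay above all 3 chow libraries. Adipocyte-like nuclei made up 3.25% of HH and 22.6% of CC, a difference of −19.3 points (−20.7 to −17.9). They made up 21.0% of C, 24.8% of CCC and 1.798% of H. Shares of one library sum to a whole, and shares of nuclei count nuclei captured, not cells in the tissue. With macrophage-like nuclei left out, adipocyte-like nuclei were still 5.45% of the rest in HH and 25.8% in CC.

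Progenitor-like nuclei were 26.7% of HH and 23.7% of CC, a difference of 2.92 points (1.31 to 4.49), and 20.5% of C, 15.6% of CCC and 19.8% of H. Without macrophage-like nuclei they were 44.7% of HH and 27.1% of CC. Fibro-inflammatory progenitor-like nuclei, which carry Dpp4 and Pi16, were 16.7% of the progenitor-like nuclei of HH and 21.4% of those of CC, and the interval of the difference against CCC, −6.24 to 0.406 points, held 0.

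Mast cell-like nuclei, marked by the protease gene Cpa3 and the receptor gene Kit, were 210 nuclei or 1.69% in HH and 9 nuclei or 0.249% in CC, a difference of 1.44 points (1.13 to 1.71). C, CCC and H had 0.359%, 0.270% and 0.431%, so HH lay above all 4 of these libraries. The 8 mast cell markers summed to 10413 CPM in these nuclei of HH, 3164 CPM in CC and 731.3 CPM in C, so the few nuclei of C carried the name weakly. B cell-like nuclei were 2.51% of HH and 0.718% of CC, with 1.72% in CCC and 0.841% in H. T or NK cell-like nuclei were 2.52% of HH and 1.93% of CC, a difference of 0.583 points (0.0178 to 1.08), and the interval against CCC, −0.172 to 0.878 points, held 0. In H they were 1.28%, below all 3 chow libraries. With macrophage-like nuclei left out, the shares were 4.22% of HH, 2.21% of CC, 2.135% of C, 2.34% of CCC and 2.56% of H, so that the order of H against the chow libraries turned. Dendritic cell-like nuclei were 0.522% and 0.331%, with an interval of the difference that also held 0 (−0.0801 to 0.392). With macrophage-like nuclei left out they were 0.876% (0.677 to 1.12) and 0.379% (0.196 to 0.661), intervals that did not overlap. With epithelial-like nuclei left out as well, they were 0.888% (0.686 to 1.13) and 0.462% (0.239 to 0.805), and the intervals overlapped.

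The shares of vessel and lining cells gave no single order against the chow libraries. Endothelial-like nuclei were 3.89% of HH, 5.13% of CC, 10.6% of C and 2.82% of CCC. Mesothelial-like nuclei were 7.002% of HH, 8.70% of CC, 8.94% of C and 5.76% of CCC. HH was below CC and C and above CCC for both classes. A cluster of 1957 low-count nuclei that was set apart before these shares were taken, with 383 nuclei of CC, 1413 of CCC, 85 of C and 2 of HH, carried 9 endothelial markers such as Pecam1, Cdh5 and Kdr beside Rgs5 and haemoglobin genes. Its nuclei are in none of these shares, so the endothelial order against CCC could depend on that step as well. With them set apart, HH (3.89%) was below CC (5.13%) in shares of all nuclei in clusters. Whether the orders against CC given next depend on that step is not reported here. With macrophage-like nuclei left out, the order against CC turned, to 6.53% of HH and 5.87% of CC for endothelial-like nuclei and 11.7% and 9.94% for mesothelial-like nuclei. With epithelial-like nuclei left out as well, it turned back, to 6.61% and 7.15% for endothelial-like and 11.9% and 12.1% for mesothelial-like nuclei. The direction for these classes thus depended on which nuclei were counted. Lymphatic endothelial-like nuclei were 1.05% of HH and 1.90% of CC, and the interval of the difference against CCC, −0.372 to 0.354 points, held 0. Epithelial-like nuclei, which carry epididymal genes such as Adam7 and Cftr, were 0.772% of HH and 15.7% of CC, with 8.70% in C, 11.3% in CCC and 2.65% in H. Smooth muscle or pericyte-like nuclei were 0.683% and 0.994%, with an interval of the difference that held 0 (−0.711 to 0.00799).

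**Figure D2:**
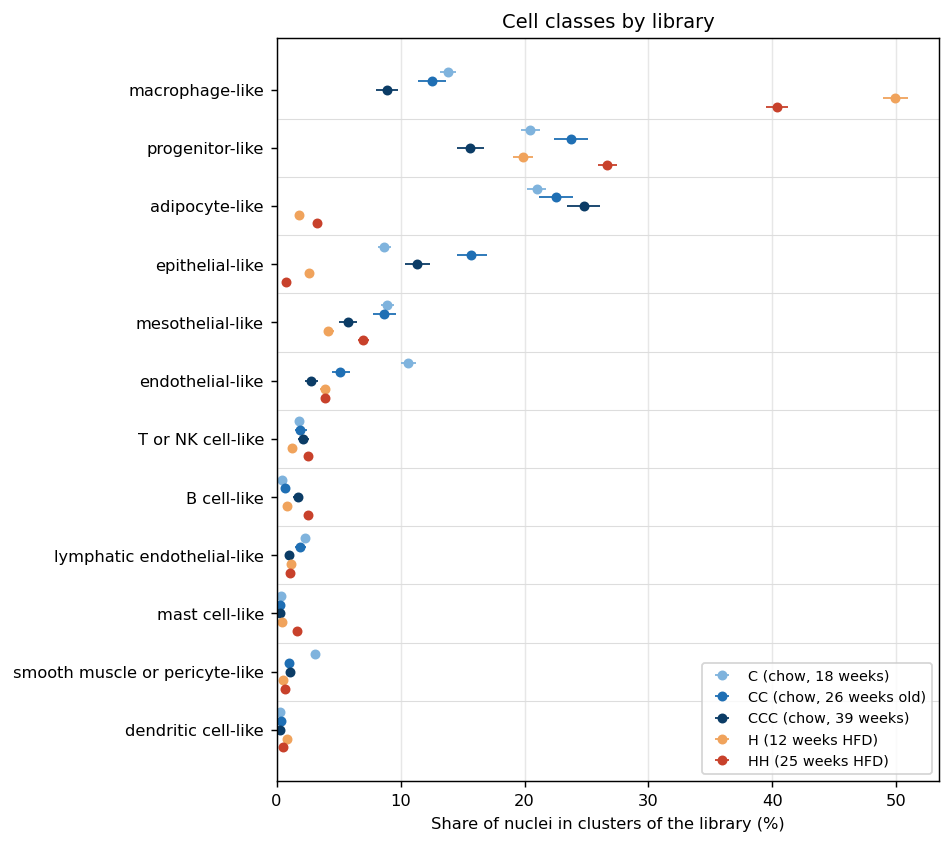
Share of each cell class in percent of the nuclei in clusters, with 1 point per library and Clopper-Pearson intervals as bars. Macrophage-like nuclei of HH (40.4%) and H (49.9%) lie above the 3 chow libraries, adipocyte-like nuclei of both (3.25% and 1.798%) lie below them, and mast cell-like nuclei of HH (1.69%) lie above all other libraries drawn.

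Within macrophage-like nuclei the LAM-like share was higher and the PVM-like share lower in HH. Of the 5022 macrophage-like nuclei of HH, 1937 or 38.6% were LAM-like, against 7 of 453 or 1.55% in CC, a difference of 37.0 points (34.9 to 38.6). LAM-like shares were 5.89% in C, 6.34% in CCC and 48.7% in H. PVM-like nuclei were 12.1% of the macrophage-like nuclei of HH and 38.2% of those of CC, a difference of −26.1 points (−30.7 to −21.7), with 42.1% in C, 41.9% in CCC and 10.7% in H. NPVM-like nuclei were 35.5% and 31.3%, and the interval of that difference held 0 (−0.447 to 8.47). Macrophage-like nuclei of no named kind were 12.4% in HH and 28.5% in CC, which bears on every share of a kind. Proliferating-like nuclei were 1.45% and 0.442%, with an interval of −0.179 to 1.502 points. A cluster led by cell cycle genes stayed unnamed and is outside the macrophage-like class. It held 323 nuclei or 2.60% of all HH nuclei in clusters, and 11 or 0.304% of those of CC.

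The LAM-like share depended on how clusters were drawn and named. With doublets kept, it was 10.1% in HH and 0.459% in CC, a difference of 9.67 points. At clustering resolution 1 the difference was 23.6 points, and with the mixed low-count nuclei kept it was 18.0 points. HH was above CC in all of these settings. Summed levels of the LAM genes over the whole macrophage-like class, given next, do not use these sub-clusters.

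**Figure D3:**
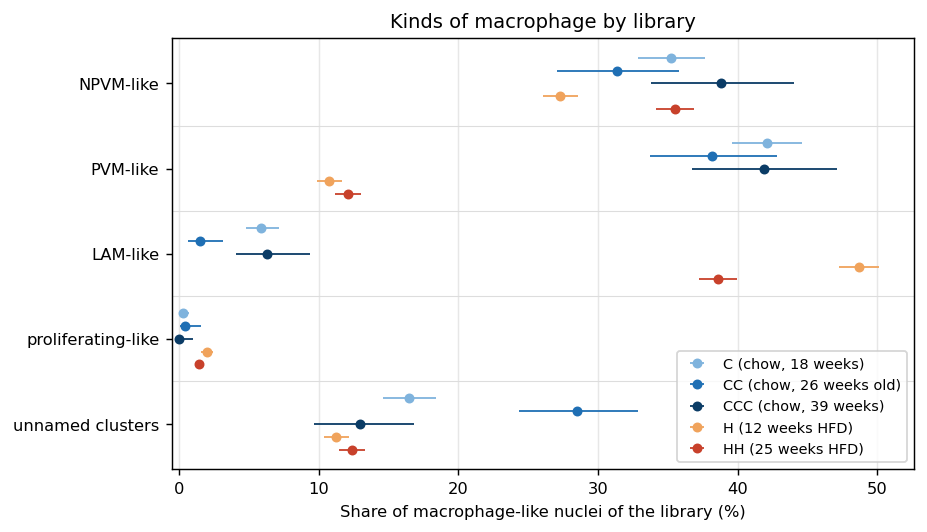
Share of each kind of macrophage in percent of the macrophage-like nuclei, with 1 point per library and Clopper-Pearson intervals as bars. LAM-like nuclei were 38.6% in HH and 48.7% in H against at most 6.34% in the chow libraries, and PVM-like nuclei were 12.1% and 10.7% against at least 38.2%.

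In macrophage-like nuclei 10739 genes were measured, of which 3050 (28.4%) were higher and 1059 (9.86%) were lower in HH than in CC. HH held most UMIs of this class, so genes high in HH passed the filter more readily than genes high in CC. Against each of CC, C and CCC, 1779 (16.6%) were higher and 577 (5.37%) were lower. The median log2 ratio over all genes was 0.33. With CCC in place of CC, 2647 genes were past 2-fold in either direction, compared with 4109 against CC. CCC held 779504 UMIs in this class and CC 1336108. The UMI limit thus lay at a higher CPM against CCC, and the counts cover different sets of genes. Within NPVM-like nuclei alone 2048 genes were past 2-fold, and within PVM-like nuclei alone 2368.

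Genes of the LAM programme, which serve lipid uptake, storage and matrix breakdown, were higher in HH for 14 of 15 members, all 14 also against C and CCC, with a median log2 ratio of 4.52. Trem2 encodes the lipid-sensing receptor of this programme. Its level was 379.6 CPM in HH and 2.25 CPM in CC (log2 ratio 7.4). Gpnmb, a transmembrane glycoprotein of lysosome-rich phagocytes, had 2535 CPM in HH, 25.4 CPM in CC, 55.0 CPM in C, 123 CPM in CCC and 2700 CPM in H. Mmp12, a macrophage elastase (chr9:7344381-7369499, build mm10), had 2508 CPM in HH and 14.2 CPM in CC (log2 ratio 7.46, 6.82 to 8.19), with 47.4 CPM in C, 68.0 CPM in CCC and 4013 CPM in H. For Gpnmb and Mmp12 both HFD libraries lay far above the 3 chow libraries. Apoe, an apolipoprotein that carries exported cholesterol, had 2157 CPM in HH, 334.6 CPM in CC and 1162 CPM in H. Lpl, lipoprotein lipase, was the member between the limits, with 1327 CPM in HH and 867 CPM in CC (log2 ratio 0.61, 0.53 to 0.70). Lpl is also made by adipocytes, whose marker signal in macrophage-like nuclei was higher in CC.

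Lysosomal genes were higher for 17 of 23 members and lower for 0, with a median of 1.66, and 13 of the 17 were higher against all 3 chow libraries. Among the cathepsins, the proteases of the lysosome, Ctsb had 1730 CPM in HH and 405.7 CPM in CC, Ctsd had 1136 and 84.6 CPM, and Ctsk had 545.3 and 7.48 CPM (log2 ratio 6.19, 5.31 to 7.25). Psap, a precursor of activators of lipid hydrolases, had 1852 CPM in HH and 345.0 CPM in CC. Lipa, the lysosomal acid lipase that frees cholesterol and fatty acids, had 608.6 and 53.9 CPM. Mitf, a transcription factor of lysosomal genes, stood at 2341 and 1361 CPM (log2 ratio 0.78), below the 2-fold limit. Mcoln1, a lysosomal calcium channel, had the smallest ratio at −0.55 (−0.96 to −0.13).

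Cholesterol handling genes were higher for 7 of 13 and lower for 0, with a median of 1.09, and 5 of the 7 were higher against all 3 chow libraries. The esterifying enzyme gene Soat1 had 476.5 CPM in HH and 59.9 CPM in CC (log2 ratio 2.99, 2.67 to 3.33), and the exporter gene Abcg1 had 228.2 and 39.7 CPM. Cd36, a fatty acid and lipoprotein receptor, had 3686 and 1631 CPM. The exporter Abca1, at 1009 and 732.0 CPM, and the scavenger receptor Msr1, at 178.0 and 208.8 CPM, stayed within 2-fold.

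MHC class II genes were higher for 6 of 7, with a median of 2.08, but only Cd74 and H2-Ab1 passed 2-fold against all 3 chow libraries. Cd74, the invariant chain, had 666.1 CPM in HH, 134.0 CPM in CC, 143.3 CPM in C, 298.9 CPM in CCC and 255.7 CPM in H. HH was thus above H and each chow library, while H lay below CCC. Ciita, the transactivator of the class II genes, had 98.8 CPM in HH and 184.9 CPM in CC (log2 ratio −0.90).

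Of 15 cytokine and chemokine genes 8 had enough UMIs. Of these 7 were higher, 4 of them against all 3 chow libraries, and the median was 3.50. The filter favoured genes high in HH here too. Tnf had 331 UMIs in HH and 1 in CC (log2 ratio 5.30, 2.81 to 10.6). Ccl6, a chemokine of myeloid cells, had 500.6 and 140.7 CPM, and 385.9 CPM in C. Cxcl2, which attracts neutrophils, had 496 UMIs in HH and 0 in CC, a log2 ratio of 4.30 with 0 set to 3 UMIs. It had 25.7 CPM in CCC, however, beside 44.3 CPM in HH. Il18 stood at 30.8 and 39.7 CPM. Of 13 interferon-stimulated genes 7 were measured, with 0 past 2-fold in either direction and a median of −0.09. Ifit1, Ifit2, Ifit3, Isg15, Mx1 and Irf7 were not among the 7, so nothing is read for them. Cell cycle genes had enough UMIs for only 4 of 12, of which Diaph3 and Brip1 were higher (with TMM factors only Brip1), and none passed 2-fold against all 3 chow libraries. The unnamed cluster led by cell cycle genes is not in these sums.

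Genes of the PVM programme were lower for 4 of 12 and higher for 1, with a median of −0.87. F13a1, a coagulation factor subunit, had 925.4 CPM in HH and 4842 CPM in CC (log2 ratio −2.39, −2.43 to −2.34), with 6863 CPM in C, 5602 CPM in CCC and 903.5 CPM in H. Timd4, a receptor for dying cells on resident macrophages (chr11:46810800-46844332), had 10.8 CPM in HH and 163.9 CPM in CC (log2 ratio −3.92, −4.26 to −3.60). Cd163 and Lyve1, both scavenger receptors, were also lower. Mrc1, the mannose receptor, had 1197 and 2161 CPM and stayed within 2-fold. Pf4, a chemokine, was higher at 107.3 against 20.2 CPM.

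The same lists were also summed inside each kind of macrophage. In the 607 PVM-like nuclei of HH and the 173 of CC, F13a1 had 5313 and 6565 CPM and Cd163 had 775.5 and 794.7 CPM, both within 2-fold. Over the PVM programme as a whole, 6 of 12 genes were higher and 1 was lower in PVM-like nuclei, with a median of 0.89, opposite in sign to the median of −0.87 over the class. In NPVM-like nuclei 3 of the 9 measured genes were higher and 3 lower, with a median of −0.25. The other 3 members, Lyve1, Timd4 and Cd209f, had too few expected UMIs there to be counted, with log2 ratios of −1.82, −3.16 and −2.75. Timd4 in PVM-like nuclei had 34.0 CPM in HH and 221.5 CPM in CC (log2 ratio −2.70, −3.20 to −2.23). LAM programme genes were higher in PVM-like nuclei for 13 of 14 with a median of 3.62, beside 20.3% of 8107 genes higher and 8.89% lower there. Only 4 of these 14 genes, Atp6v0d2, Plin2, Tyrobp and Apoe, stood above their level over the HH nuclei that were not macrophage-like, and none by 2 times. Mmp12 had 611.1 CPM in PVM-like nuclei of HH and 820.7 CPM over those other nuclei, Gpnmb 490.4 and 643.5 CPM, and Trem2 250.4 and 251.1 CPM. Whether the levels of the remaining 10 genes in PVM-like nuclei were background or expression was not tested. The nuclei of HH that were not macrophage-like included unnamed nuclei, in which the macrophage markers summed to 6703 CPM. In NPVM-like nuclei, 1783 in HH and 142 in CC, they were likewise higher for 13 of 14 with a median of 3.50, beside 25.6% higher and 6.85% lower of 6309 genes. There 11 of the 14 stood above the level over the other nuclei, 3 of them by 2 times, with Atp6v0d2 at 1068 against 115.4 CPM. Mmp12, Cd9 and Lpl did not. Lpl was the exception in both, at 793.1 and 922.5 CPM in NPVM-like nuclei and 425.2 and 669.2 CPM in PVM-like nuclei. Apoe in NPVM-like nuclei had 2964 CPM in HH and 320.9 CPM in CC, and H2-Ab1 had 531.1 and 71.6 CPM. Lysosomal genes were higher for 16 of 22 in NPVM-like and 17 of 23 in PVM-like nuclei. Of these, 16 in NPVM-like and 14 in PVM-like nuclei also stood above the other nuclei of HH. MHC class II genes were higher for 6 of 7 in each, with 1 lower in PVM-like nuclei. In PVM-like nuclei 0 of the 7 stood above the other nuclei of HH, which included B cell-like and dendritic cell-like nuclei. The part of background in these levels was not tested. Cholesterol handling genes were higher for 4 of 11 in NPVM-like and 6 of 12 in PVM-like nuclei. Since genes of these lists are among the markers that named the kinds, the counts are descriptions.

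Leading genes of the class that differed most, past 2-fold against all 3 chow libraries, were led by Rgs1, a regulator of G-protein signalling that limits chemokine responses (chr1:144242296-144249242). It had 6539 UMIs or 583.5 CPM in HH and 2 UMIs in CC (log2 ratio 8.61, 6.75 to 11.7), with 10.3 CPM in C, 29.5 CPM in CCC and 593.1 CPM in H. Itgax encodes the integrin CD11c (chr7:128129547-128150657). It had 177.2 CPM in HH, 1 UMI in CC, 10.6 CPM in C, 19.2 CPM in CCC and 203.8 CPM in H. Next came Adam8, a metalloprotease, Mmp12, Dlgap2, a scaffold protein gene best known from synapses, and Il7r, the interleukin 7 receptor chain, with log2 ratios of 7.49, 7.46, 7.36 and 7.31. Adam8, Dlgap2 and Il7r had only 2, 1 and 3 UMIs in CC, with intervals of 5.63 to 10.5, 4.88 to 12.7 and 5.76 to 9.59. Over CCC their log2 ratios were smaller, at 2.32, 2.12 and 4.03.

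On the lower side the largest difference was in Aff3, a nuclear transcription regulator (chr1:38177326-38664955). It had 27.8 CPM in HH, 616.7 CPM in CC, 797.1 CPM in C, 701.7 CPM in CCC and 31.9 CPM in H (log2 ratio −4.47, −4.66 to −4.28). Gfra2, a co-receptor for neurturin, had 21.4 CPM in HH and 333.1 CPM in CC. Timd4, BC035044, the growth factor gene Nrg2 and Tlr5, the flagellin receptor, followed with log2 ratios of −3.92, −3.82, −3.63 and −3.45. All 6 lay within 2-fold of each other in the 3 chow libraries and were low in both HFD libraries, as for Nrg2 with 466.3, 540.7 and 400.3 CPM in CC, C and CCC against 37.7 CPM in HH and 28.2 CPM in H. The LAM-like and PVM-like shares of the class differed between HH and CC. The part of that mix in the higher and lower leading genes was not tested.

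**Figure D4:**
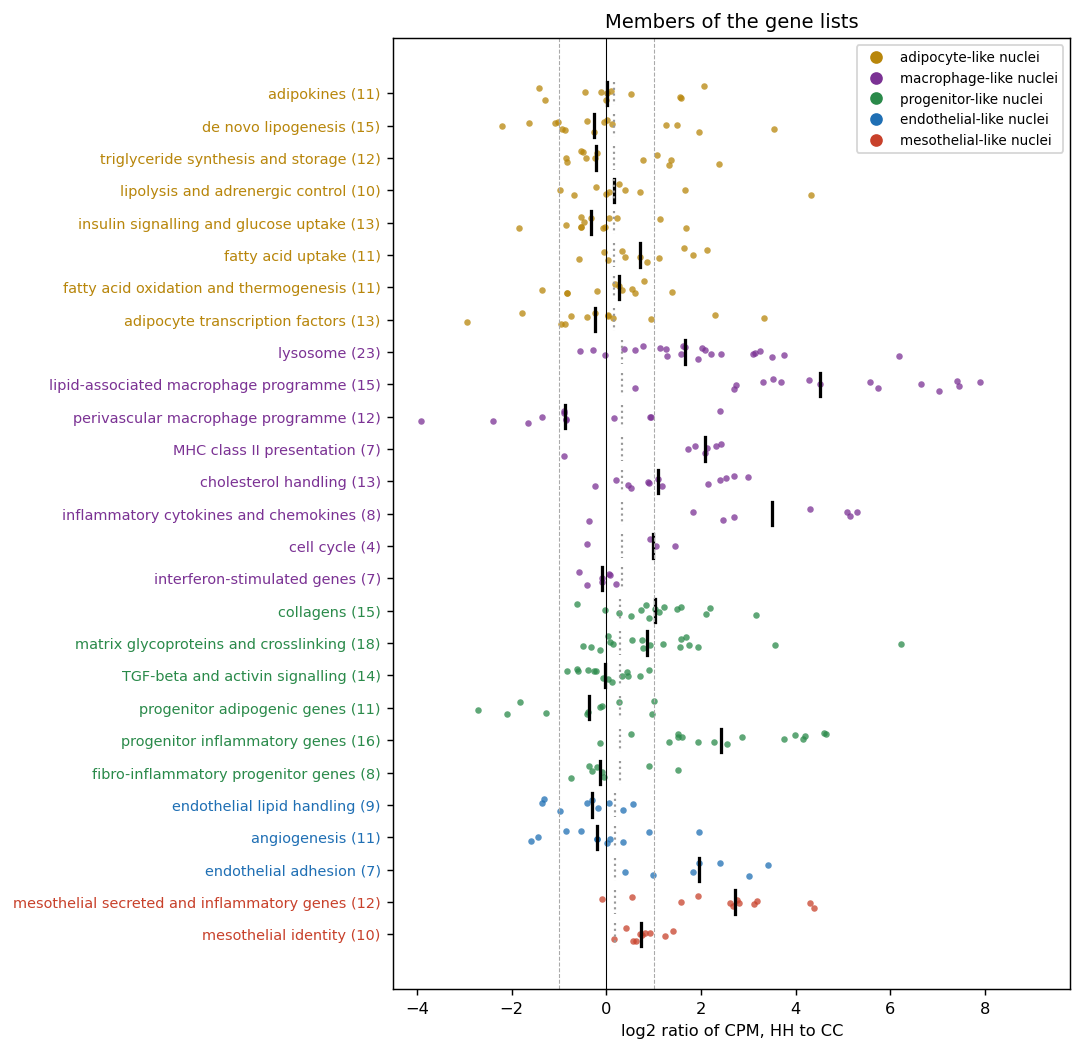
Log2 ratio of HH over CC for each measured member of the gene lists, with 1 dot per gene. A black bar marks the list median, a dotted line the median of all genes measured in that class, and dashed lines the 2-fold limits. LAM programme genes lie highest (median 4.52, all genes 0.33). The 7 measured of 13 interferon-stimulated genes lie near 0 (median −0.09). The medians of the adipokine and lipolysis lists change sign with TMM factors.

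In adipocyte-like nuclei, 404 in HH and 817 in CC, 11236 genes were measured, of which 2676 (23.8%) were higher and 1110 (9.88%) were lower in HH. With TMM factors (a scaling that centres most genes), which moved every ratio in this class by −0.26, these counts were 2139 (19%) and 1655 (14.7%). Against all 3 chow libraries 1598 (14.2%) were higher and 380 (3.38%) were lower. Of the 1598, 570 had a level at least 2 times that over the other nuclei of HH, and of the 380, 26 had such a level in CC. The median over all genes was 0.17, and −0.09 with TMM factors.

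Of 15 de novo lipogenesis genes 4 were higher and 4 lower, with a median of −0.26. The higher count is close to the 23.8% of all genes called higher in this class. Those of the adipokine, lipolysis, insulin signalling, transcription factor and fatty acid oxidation lists given below are close to it or under it. Nothing about any of these lists is read from their higher counts. Acaca and Acacb, the acetyl-CoA carboxylases that make malonyl-CoA, were lower, with 523.7 against 1116 CPM and 194.1 against 605.1 CPM. Acaca varied widely between chow libraries, at 3764 CPM in C and 710.1 CPM in CCC. Scd1, which desaturates stearoyl-CoA, had 320.0 CPM in HH, 1467 CPM in CC, 765.9 CPM in C and 584.3 CPM in CCC (log2 ratio −2.20, −2.32 to −2.07). Acly, ATP citrate lyase, was lower with 48.1 and 98.1 CPM. None of these 4 was past 2-fold against all 3 chow libraries. Insig1, a sterol sensor of the SREBP pathway, was higher at 232.8 CPM in HH against 20.02 CPM in CC, 19.8 CPM in C and 29.6 CPM in CCC (log2 ratio 3.54, 3.19 to 3.90). Thrsp, Scd2 and the citrate carrier gene Slc25a1 were the other 3 higher genes, all 4 past 2-fold against each chow library. Mlxipl, which encodes the carbohydrate-responsive factor ChREBP, stood at 371.5 and 679.1 CPM and was called lower only with TMM factors, as was Elovl6.

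Genes of lipid storage and its control held the largest difference of any adipocyte list. G0s2, an inhibitor of the adipose triglyceride lipase, had 2728 CPM in HH, 135.5 CPM in CC, 305.7 CPM in C, 296.2 CPM in CCC and 2074 CPM in H (log2 ratio 4.33, 4.2 to 4.46). Pnpla2, which encodes that lipase, was higher as well, at 376.0 against 118.9 CPM. These were the 2 genes higher of 10 in the lipolysis list, whose median was 0.16, and −0.10 with TMM factors. Pde3b, a phosphodiesterase through which insulin restrains lipolysis, had 1476 and 2904 CPM (log2 ratio −0.98) and was called lower only with TMM factors. Npr3, a natriuretic peptide clearance receptor, and Prkar2b, a protein kinase A subunit, stayed within 2-fold at log2 ratios of 0.70 and 0.26.

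Of 12 triglyceride synthesis and storage genes 4 were higher and 0 lower, with a median of −0.21, and 2 of the 4 were higher against all 3 chow libraries. Gpd1, which makes glycerol 3-phosphate for triglyceride, had 339.1 CPM in HH, 65.0 CPM in CC, 36.1 CPM in C, 107.5 CPM in CCC and 219.3 CPM in H (log2 ratio 2.38, 2.17 to 2.60). Agpat2, an acyltransferase, and the lipid droplet coat genes Plin1 and Plin4 were the other higher genes, though Plin4, at 2298 and 1103 CPM, fell below 2-fold with TMM factors. Cidec, a droplet fusion protein, had 2219 and 2606 CPM, and Dgat2, which makes the last step to triglyceride, had 1004 and 1149 CPM, both within 2-fold. With TMM factors 3 were higher and 2 lower.

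Fatty acid uptake genes were higher for 4 of 11 and lower for 0, with a median of 0.70. Fabp4, the adipocyte fatty acid binding protein, had 6307 CPM in HH, 2018 CPM in CC, 1877 CPM in C, 1629 CPM in CCC and 5518 CPM in H (log2 ratio 1.64, 1.60 to 1.69). Lipa and Fabp5 were also past 2-fold against all 3 chow libraries, and both belong to genes that were high in macrophage-like nuclei of HH as well. Acsl1, an acyl-CoA synthetase, had 3358 and 1541 CPM but 2525 CPM in C, and fell below 2-fold with TMM factors, which left 3 higher genes. Cd36 had 3018 and 2309 CPM, within 2-fold.

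Insulin signalling genes were higher for 2 of 13 and lower for 1, with a median of −0.33. Grb14, an adaptor that inhibits the insulin receptor, was higher at 235.0 against 73.4 CPM (log2 ratio 1.68, 1.46 to 1.90). Igf1r, the insulin-like growth factor receptor, was lower at 31.9 against 115.2 CPM, with 64.6 CPM in C, 174.8 CPM in CCC and 14.3 CPM in H. Slc2a4, the insulin-responsive glucose transporter GLUT4, had 71.6 and 32.6 CPM and fell below 2-fold with TMM factors. Foxo1 and Pik3r1, which act downstream of the receptor, stood at log2 ratios of −0.85 and −0.54.

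Among 13 adipocyte transcription factors, 2 were higher and 2 lower, with a median of −0.25, beside 23.8% higher and 9.88% lower of all genes in this class. Cebpb and Cebpa, which drive adipocyte differentiation, were higher at 372.6 against 37.3 CPM and 191.9 against 39.1 CPM. Both were past 2-fold against each chow library. Pparg, the master regulator of adipocytes, had 2486 CPM in HH, 4560 CPM in CC, 1468 CPM in C and 3483 CPM in CCC, so HH lay within the range of the chow libraries. Its heterodimer partner Rxra was lower at 17.9 against 137.7 CPM, and C was at 33.0 CPM, less than 2-fold above HH. Zbtb16 was lower against all 3 chow libraries, at 1113 CPM against 3850, 2792 and 2323 CPM in CC, C and CCC. With TMM factors 2 were higher and 5 lower, Pparg among them.

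Adipokine genes were higher for 3 of 11 and lower for 2, with a median of 0.02, and −0.24 with TMM factors. Against all 3 chow libraries 2 were higher and 0 lower. Metrnl, which encodes a secreted meteorin-like protein, had 25.7 and 6.18 CPM (log2 ratio 2.06, 1.33 to 2.82). Cfd, the complement factor adipsin, had 177.4 CPM in HH and 474.1 CPM in CC, but 144.3 CPM in CCC. Nrg4 had 1168 and 1152 CPM and Vegfa had 388.3 and 388.1 CPM. Lep, leptin, had 317.8 and 298.6 CPM, and Adipoq, adiponectin, had 270.2 and 292.4 CPM, with intervals of their log2 ratios that held 0 (−0.06 to 0.23 and −0.27 to 0.04). Lep and Adipoq were named after their values were seen. Of 11 genes of fatty acid oxidation and thermogenesis only Hadha, a subunit of the mitochondrial trifunctional protein, was higher and only Ppara, a factor that drives fatty acid oxidation, lower, neither past 2-fold against all 3 chow libraries, and with TMM factors 1 was higher and 3 were lower.

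**Figure D5:**
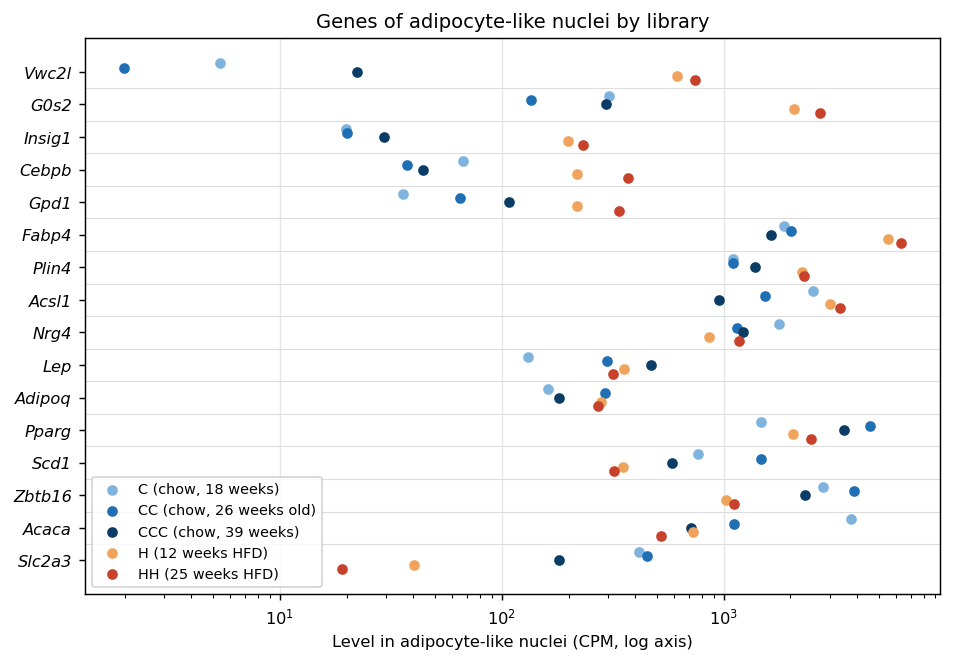
CPM of genes in adipocyte-like nuclei on a log axis, with 1 point per library. Vwc2l, G0s2, Insig1 and Cebpb have HH and H above all 3 chow libraries, Slc2a3 and Zbtb16 have both below, and Nrg4, Lep and Adipoq have HH close to CC.

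The adipocyte gene with the largest ratio was Vwc2l, a secreted protein with von Willebrand factor C domains (chr1:70725715-70885397). It had 1322 UMIs or 739.7 CPM in HH and 8 UMIs or 1.98 CPM in CC (log2 ratio 8.55, 7.56 to 9.76). Its level was 5.36 CPM in C, 22.4 CPM in CCC and 616.4 CPM in H. Over the other nuclei of HH it was 1.13 CPM, so nearly all its signal was in adipocyte-like nuclei. Ubd, a ubiquitin-like modifier, had 159 and 3 UMIs, and Itgad, the integrin alpha D chain, had 158 and 3 UMIs, with log2 ratios of 6.91 and 6.90. Itgad lies at chr7:128154376-128223816, next to Itgax, and its level was 3.60 CPM over the other nuclei of HH against 88.4 CPM in adipocyte-like nuclei. A1bg, a plasma glycoprotein gene, and Pomc, the precursor of melanocortins, had 1 UMI each in CC and 45 and 35 UMIs in HH. Dancr, a long non-coding RNA, had 156.7 and 2.22 CPM, with 13.8 CPM in C and 14.5 CPM in CCC.

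Lower genes with adipocyte enrichment were few. Ncam2, a neural cell adhesion gene, had 1 UMI in HH and 184 UMIs in CC (log2 ratio −6.35, −11.7 to −3.85), with 116.8 CPM in C but 4.94 CPM in CCC. Slc2a3, the glucose transporter GLUT3 (chr6:122727809-122801640), had 19.02 CPM in HH, 451.1 CPM in CC, 415.4 CPM in C, 181.8 CPM in CCC and 40.2 CPM in H (log2 ratio −4.57, −5.10 to −4.08). It was the most precisely measured of these, with 1825 UMIs in CC. Slc25a29, a mitochondrial carrier, Dnah3, a dynein chain, and Tead4, a factor of the Hippo pathway, followed at log2 ratios of −4.31, −3.67 and −3.12.

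In progenitor-like nuclei, 3317 in HH and 860 in CC, 12965 genes were measured, of which 3042 (23.5%) were higher and 1033 (7.97%) were lower in HH. Against all 3 chow libraries 1794 (13.8%) were higher and 322 (2.48%) were lower. The median over all genes was 0.28.

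Inflammatory genes of progenitors were higher for 14 of 16 and lower for 0, all 14 also against C and CCC, with a median of 2.41. C3, the central complement component, had 738.5 CPM in HH, 192.6 CPM in CC, 271.9 CPM in C, 228.0 CPM in CCC and 438.4 CPM in H (log2 ratio 1.94, 1.81 to 2.07). Ccl2, which attracts monocytes, had 68.9 and 3.85 CPM, and Cxcl13, which attracts B cells, had 19.04 and 0.771 CPM (log2 ratio 4.63, 2.74 to 7.69). Serping1 and C4b, further complement genes, and the adhesion gene Vcam1 were higher as well. Nfkbia, an inhibitor of NF-kB, stood at 42.7 and 47.0 CPM. The macrophage marker signal given above was also higher in these nuclei of HH, and its part in this list was not tested.

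Collagen genes were higher for 8 of 15 and lower for 0, with a median of 1.03, and 4 were past 2-fold against each chow library. Col3a1, a fibrillar collagen chain, had 1673 CPM in HH, 367.9 CPM in CC, 462.6 CPM in C, 624.6 CPM in CCC and 3291 CPM in H (log2 ratio 2.19, 2.09 to 2.28). Col8a1, a short-chain collagen, had 470.9 and 52.8 CPM (log2 ratio 3.16, 2.91 to 3.41). Col1a1 and Col12a1 completed the 4. Col5a1 had 178.0 and 273.2 CPM. With TMM factors, which moved ratios in this class by −0.22, 5 of 15 remained above 2-fold.

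Matrix glycoprotein and crosslinking genes were higher for 8 of 18 and lower for 0, with a median of 0.85. Timp1, an inhibitor of matrix metalloproteases, had 196 UMIs in HH and 1 in CC (log2 ratio 6.23, 3.74 to 11.5). Postn, periostin, had 282.4 and 23.9 CPM, and Fn1, fibronectin, had 778.0 and 263.5 CPM. Fbn1, fibrillin, and Adamts5, an aggrecanase, were within 2-fold at log2 ratios of 0.15 and 0.08. Of 14 TGF-beta and activin signalling genes 0 were past 2-fold in either direction, with a median of −0.03 and ratios from −0.83 for Inhbb, an activin subunit, to 0.90 for Tgfb1. With TMM factors 1, Inhbb, was lower. The progenitor markers themselves summed to 11131 CPM in HH and 5666 CPM in CC.

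Adipogenic genes of progenitors were lower for 4 of 11 and higher for 1, with a median of −0.38, but none was past 2-fold against all 3 chow libraries. Pparg had 158.7 CPM in HH and 1043 CPM in CC (log2 ratio −2.72, −2.82 to −2.61), whereas C had 162.9 CPM and CCC 229.3 CPM. Fabp4 had 479.4 and 2068 CPM, with 339.8 CPM in C and 603.8 CPM in CCC. For both, CC stood apart from the other chow libraries, and it also held the highest adipocyte marker sum in progenitor-like nuclei, 5947 CPM against 3223 in C and 2329 in CCC. Ebf2, a factor of committed progenitors, had 2216 and 2427 CPM. Klf4 was higher at the limit, with a log2 ratio of 1.00 (0.75 to 1.27), and fell below it with TMM factors. Of 8 genes of fibro-inflammatory progenitors only Pi16 was higher (log2 ratio 1.52), and C, at 343.5 CPM, was close to HH at 366.8 CPM.

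Among genes that met the rule on class level, the largest progenitor ratios were at low counts in CC. Prl2c3, of the prolactin family, had 180 UMIs in HH and 1 in CC (log2 ratio 6.11, 3.61 to 11.4), and its reads may be shared with near-identical copies. Tmprss11d, a membrane serine protease gene (chr5:86302217-86373420), had 69.4 CPM in HH, 2.31 CPM in CC, 1.78 CPM in C, 10.1 CPM in CCC and 34.0 CPM in H. It had 0.680 CPM over the other nuclei of HH. Col24a1, a collagen chain, had 246 UMIs in HH and 0 in both CC and CCC. Its log2 ratio against CC was 4.97 with 0 set to 3 UMIs, and the interval began at 4.66. C held 36 UMIs or 6.40 CPM, beside 36.3 CPM in HH. Prr33 had 118 UMIs against 1. Pard3bos3 and Sspnos, antisense transcripts, had 164 and 86 UMIs against 1 each, and reads of their partner genes cannot be told apart from theirs where counting ignored strand.

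Lower progenitor genes were Grm3, a glutamate receptor, Pld5, Crispld1, Dok7, Kcnd3, a potassium channel, and Rtl4, with log2 ratios from −3.64 to −3.10. Rtl4, a retrotransposon-derived gene (chrX:144688907-145122411), had the most UMIs. It had 44.9 CPM in HH, 386.0 CPM in CC, 370.5 CPM in C, 193.9 CPM in CCC and 13.9 CPM in H (log2 ratio −3.10, −3.29 to −2.92). Pld5 had 3.69 CPM in HH against 44.7, 63.1 and 63.8 CPM in CC, C and CCC.

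In mesothelial-like nuclei, 871 in HH and 315 in CC, 10160 genes were measured, of which 1873 (18.4%) were higher and 693 (6.82%) were lower. Against all 3 chow libraries 813 (8.00%) were higher and 235 (2.31%) were lower. The median over all genes was 0.19, and TMM factors moved ratios by −0.16. With CCC in place of CC, 1476 genes were past 2-fold, compared with 2566 against CC. The class held 507524 UMIs in CCC and 908509 in CC, so the UMI limit lay at a higher CPM against CCC.

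Secreted and inflammatory genes of the mesothelium were higher for 10 of 12 and lower for 0, with a median of 2.71, and 9 of the 10 were higher against all 3 chow libraries. Slpi, a secreted inhibitor of leukocyte proteases (chr2:164354070-164389095), had 1706 CPM in HH, 81.4 CPM in CC, 240.6 CPM in C, 120.2 CPM in CCC and 1140 CPM in H (log2 ratio 4.39, 4.06 to 4.74). C3 had 2067 CPM in HH, 240.0 CPM in CC, 736.8 CPM in C, 264.0 CPM in CCC and 1813 CPM in H. Serping1 had 578.0 and 85.9 CPM. Saa3, an acute phase protein, had 65.5 and 3.30 CPM. Timp1 had 64 UMIs in HH and 0 in CC, a log2 ratio of 3.19 with 0 set to 3 UMIs. Hp, haptoglobin, stood at 164.4 and 175.0 CPM. In these nuclei the progenitor markers summed to 7756 CPM in HH and 3380 CPM in CC and the macrophage markers to 2733 and 557.0 CPM, and their part in this list was not tested.

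Mesothelial identity genes were higher for 2 of 10, Msln and Upk3b, neither against all 3 chow libraries, with a median of 0.74. That count is close to the 18.4% of all genes called higher in this class, so nothing is read from it. Gpm6a, a membrane glycoprotein, had 2596 and 1759 CPM, and Muc16, a mucin, had 802.8 and 717.7 CPM. The leading genes were Myocd, a coactivator of smooth muscle genes, with 180.4 against 6.604 CPM, Slpi, the antisense transcript Plxna4os3, and Gsdme, a pore-forming gasdermin, with 977.1 against 52.8 CPM (log2 ratio 4.21, 3.80 to 4.65). Gsdme had 112.3 CPM in C, 147.8 CPM in CCC and 719.7 CPM in H. Only 2 lower genes met the rule on class level, Hif3a, of the hypoxia-inducible factor family, and Usp43, with log2 ratios of −2.29 and −1.22.

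In endothelial-like nuclei, 484 in HH and 186 in CC, 8981 genes were measured, of which 1521 (16.9%) were higher and 764 (8.51%) were lower. With TMM factors, which moved ratios by −0.18, the counts were 1185 (13.2%) and 991 (11.0%). Against all 3 chow libraries 606 (6.75%) were higher and 201 (2.24%) were lower. The median over all genes was 0.18. With CCC in place of CC, 786 genes were past 2-fold, compared with 2285 against CC. The class held 235285 UMIs in CCC and 672753 in CC, so the UMI limit lay at a higher CPM against CCC. The lower count is thus not read as a smaller difference from CCC. The class was made of 3 clusters that the libraries held in different proportions. The cluster led by genes such as Car4 and Btnl9 held 171 nuclei of HH and 127 of CC, the one with Selp, Vwf and Lepr among its leading genes held 177 and 37, and the one with Gja5, Bmx and Gkn3 held 136 and 22. The part of this mix in the endothelial gene differences below was not tested.

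Adhesion genes, through which leukocytes bind the vessel wall, were higher for 5 of 7 with a median of 1.96, but 0 of them against all 3 chow libraries. Vcam1 had 253.5 CPM in HH, 23.8 CPM in CC, 268.3 CPM in C, 42.5 CPM in CCC and 225.1 CPM in H (log2 ratio 3.41, 2.68 to 4.25). HH and C, which share a set code, were close. Vwf, von Willebrand factor, had 657.3 and 184.3 CPM, with 769.3 CPM in CCC. Pecam1 had 1973 and 998.9 CPM.

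Lipid handling genes of the endothelium were lower for 2 of 9 and higher for 0, with a median of −0.31, none against all 3 chow libraries. Pparg had 702.0 CPM in HH and 1805 CPM in CC (log2 ratio −1.36, −1.51 to −1.22), and 612.0 CPM in CCC. Fabp4, a carrier of fatty acids in capillary endothelium, had 4009 and 7990 CPM (log2 ratio −0.99) and 1255 CPM in C. Angiogenesis genes were higher for 1 of 11 and lower for 2, with a median of −0.20, none against all 3 chow libraries. Vegfc, a growth factor of lymphatic vessels, had 416.2 and 107.0 CPM, but 396.6 CPM in C. Kdr, the main receptor of vascular endothelial growth factor, was lower at 136.7 against 370.1 CPM. Flt1 had 1077 and 1069 CPM.

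The endothelial genes with the largest ratios had few UMIs in CC. Gkn3, known from arterial endothelium, had 79 UMIs against 1, Txlnb 64 against 1, Clec9a 56 against 1 and the antisense transcript Sorbs2os 143 against 4. Gkn3 is among the leading genes of the cluster that held 136 nuclei of HH and 22 of CC. Clec9a is also a dendritic cell marker, at 1166 CPM in dendritic cell-like nuclei of HH against 69.6 CPM here. Among lower genes Lars2, the mitochondrial leucyl-tRNA synthetase, had 83.3 and 1278 CPM, with 952.0 CPM in CCC and 178.7 CPM in C. It was lower over all other nuclei too, at 85.7 CPM in HH and 602.5 CPM in CC. Zfp804b, Plpp6 and Slc1a1, a glutamate transporter, had 2, 2 and 6 UMIs in HH and 23, 21 and 54 in CC.

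Lymphoid and mast cell nuclei were too few in CC for most genes. In T or NK cell-like nuclei, 313 in HH and 70 in CC, 7 of 11 measured markers were past 2-fold higher and 0 lower, beside 26.7% higher and 9.93% lower of 3645 genes. All 12 markers summed to 7614 CPM in HH and 3706 CPM in CC. The sums were 5334 CPM in C, 8008 CPM in CCC and 7122 CPM in H, so CCC lay above HH. Themis, a gene of thymocyte selection, had 1325 CPM in HH and 259.9 CPM in CC, and Cd3e, a chain of the T cell receptor complex, had 59 UMIs and 5 UMIs. Of 19 genes that tell T cell kinds apart, 7 had 0 UMIs in CC, where the total was 150036 UMIs, and all 19 had UMIs in HH, with a total of 422518. Those 7 included Cd4 with 48 UMIs in HH, Cd8a with 28 and Foxp3, the factor of regulatory T cells, with 15. At a total of 150036 UMIs a count of 0 allows up to 3 UMIs. Tox, a factor of sustained T cell stimulation, had 2310 CPM in HH, 406.6 CPM in CC, 1116 CPM in C, 1799 CPM in CCC and 2360 CPM in H. Rora, a factor of innate lymphoid cells and of some T cells, had 336.1 CPM in HH, 1373 CPM in CC, 1069 CPM in C, 591.0 CPM in CCC and 362.6 CPM in H. CC was the lowest library for Tox and the highest for Rora, and CCC lay nearest to the HFD libraries. Macrophage markers summed to 4937 CPM in these nuclei of HH and 766.5 CPM in those of CC, and adipocyte markers to 525.4 and 8378 CPM.

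In B cell-like nuclei, 312 in HH and 26 in CC, all 9 measured B cell markers of 10 were higher, beside 33.5% higher of 1375 genes. The 10 markers summed to 13085 CPM in HH and 3210 CPM in CC. The sums were 10940 CPM in C, 11620 CPM in CCC and 12681 CPM in H, so CC stood apart from the other chow libraries. Ighm, the heavy chain of IgM, had 2888 and 281.3 CPM, and Bank1, a B cell scaffold protein, had 5608 and 1704 CPM. In mast cell-like nuclei 4 of 8 markers had enough UMIs and all 4 were higher, beside 29.8% higher of 349 genes. Cpa3 had 4205 CPM in HH from 1369 UMIs and 1162 CPM in CC from 29 UMIs, and Kit had 2338 and 520.7 CPM. These marker levels were used to name the classes, and the 26 and 9 nuclei of CC carried adipocyte markers at 7430 and 5848 CPM, so the levels are descriptions only.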

How the data were processed

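Single-nucleus RNA was measured in 9 libraries of mouse epiAT, each from nuclei pooled from 5 mice (10x Genomics 3′ chemistry). The deposited values are raw UMI counts for each gene in each barcode called as a cell. Cell Ranger 6.1.2 with mm10, run by the authors with introns counted, produced them, and Seurat 4.1.0 is also listed in their processing notes. No filtering, doublet removal or free RNA correction is in the deposited counts, and the estimate of free RNA described by the authors was not repeated. Groups came from the labels.

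Nuclei with 500 to 3000 genes and at most 40000 UMIs were kept. Scrublet, run on each library alone (scanpy 1.11.5 under Python 3.11.15), marked doublets. Where its threshold marked under 0.5% of nuclei, as in CC, the nuclei with the highest scores were taken out at the rate expected for the loading instead. Totals exclude mitochondrial genes and Malat1. Nuclei of all 9 libraries were log-normalized, reduced to 2000 variable genes and 30 components, and clustered (Leiden, 20 neighbours, igraph 0.11.9). Clusters of a first pass at resolution 1 with under 66.7% of the median UMIs of their libraries and markers of 2 classes were set apart. The rest was corrected for library with a Harmony-type method and clustered at resolution 0.5. Macrophage-like and progenitor-like nuclei were clustered again.

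Every named cluster had at least 3 markers of its class that were found in at least 10% of its nuclei at 2-fold or more. Meeting this limit did not always give a name. The cluster led by Skint3 met it with 4 macrophage markers and stayed unnamed. Its 659 nuclei of HH and 74 of CC are thus outside the macrophage-like shares. A cluster of 22 nuclei with 11 adipocyte markers also stayed unnamed. Names end in "-like" as they rest on these markers. Members, markers, gene lists and the naming rule were chosen with earlier results of these data known. Leading genes were past 2-fold against CC, C and CCC, had a class level at least 2 times that of other nuclei, and were the 6 (adipocyte, progenitor, macrophage) or 4 (endothelial, mesothelial) with the most extreme ratios, leaving out predicted gene models and ribosomal and mitochondrial genes. From each list, the 3 members with most UMIs and those with the largest and smallest ratio were named. Some genes that met these rules are not reported here. Further list members named in the text, such as Trem2, Ctsd, Lipa, Abcg1, Thrsp, Cebpa, Postn, Ccl2 and Saa3, and the other-class values of Clec9a, were chosen after their values were seen. Intervals came from scipy 1.17.1 and TMM factors from edgeR 4.0.16 (R 4.3.3). Ratios were checked on simulated counts. Of 32285 genes, 32158 matched the GENCODE vM21 annotation, which gave coordinates in mm10 (GRCm38). Alternatives were C or CCC in place of CC, doublets or mixed low-count nuclei kept, no upper gene limit, no library correction, resolution 1, TMM factors, and other filters. Counts within NPVM-like or PVM-like nuclei alone were added after the data were examined.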

Additional observations from a re-analysis of the deposited data

Results flagged for a closer look

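Slc1a1, a glutamate transporter gene, differed between the 2 HFD comparisons in endothelial-like nuclei. Its log2 ratio was −3.43 for HH over CC, with 6 UMIs in HH and 54 in CC, and 0.35 for H over C, with 33.5 CPM in H and 26.4 CPM in C. The intervals did not overlap, but the difference between the comparisons was not tested, since each group has 1 library. Its levels were 7.46 CPM in HH, 80.3 CPM in CC and 80.8 CPM in CCC.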

How the results depend on the processing

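No paired analysis was possible because each group has 1 library, so no replicate numbers are shared, and no replicate could be left out. All 415 alternative values of the 50 leading genes kept their direction and stayed past 2-fold, and 69 of them moved beyond the interval of the reported value. For C and CCC in place of CC the outcome was fixed by the rule that chose the genes. The alternative filters on UMIs used the same counts and left each ratio unchanged. TMM factors moved all ratios of a class by the same amount, from −0.08 to −0.26. These settings were thus no check on the direction. The difference in macrophage-like share (27.9 points) was 31.5 with CCC in place of CC and 32.1 without the upper gene limit. The difference in adipocyte-like share (−19.3) was −17.7 against C, −21.5 against CCC, −21.0 with doublets kept and −23.6 with mixed low-count nuclei kept. The difference in LAM-like share (37.0) was 32.7 against C, 32.2 against CCC, 33.2 without the upper gene limit, 42.1 without library correction, 23.6 at resolution 1, 18.0 with mixed low-count nuclei kept and 9.67 with doublets kept. The cause was not tested. Against CCC in place of CC, the sign reversed to 1.07 points for endothelial-like and 1.24 for mesothelial-like nuclei, and to 0.0234 for lymphatic endothelial-like nuclei, where the interval (−0.372 to 0.354) held 0. Genes past 2-fold in adipocyte-, progenitor-, macrophage-, endothelial- and mesothelial-like nuclei (3786, 4075, 4109, 2285 and 2566) numbered 9308, 9332, 12238, 6815 and 7831 with no filter beyond 1 UMI, where more genes were tested, and 2032, 2622, 2482, 981 and 1179 with at least 30 expected UMIs. Against CCC they numbered 2647 in macrophage-, 786 in endothelial- and 1476 in mesothelial-like nuclei. CCC held fewer UMIs than CC in each of these classes, so the UMI limit lay at a higher CPM there. Counts within NPVM-like and PVM-like nuclei alone, 2048 and 2368, used fewer nuclei. Depth limited the small classes, with 70 T or NK, 36 smooth muscle or pericyte, 26 B, 12 dendritic and 9 mast cell-like nuclei in CC.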

Other observations

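Immediate early genes, which respond to stimulation within minutes and also to tissue handling, were summed over 10 genes. In macrophage-like nuclei the sum was 744.1 CPM in HH, 98.0 CPM in CC, 201.9 CPM in C, 137.3 CPM in CCC and 827.0 CPM in H. Atf3, a stress-induced factor, had 254.8 and 4.49 CPM in HH and CC, and Fos had 125.5 and 3.74 CPM, whereas Nr4a1 had 7.41 and 8.98 CPM. In progenitor-like nuclei the sum was 352.5 CPM in HH and 116.3 CPM in CC, but 434.9 CPM in C, above HH. In adipocyte-like nuclei it was 160.6 CPM in HH, 58.6 CPM in CC, 64.1 CPM in C and 115.0 CPM in CCC. In endothelial-like nuclei it was 354.1 CPM in HH, 175.4 CPM in CC, 220.9 CPM in C and 306.0 CPM in CCC. In mesothelial-like nuclei it was 252.5 CPM in HH and 115.6 CPM in CC, with 344.2 CPM in C and 191.1 CPM in CCC.

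Some clusters kept no name. A cluster led by Skint3, Klri1 and Klra2, with Ccr2, the receptor that draws monocytes into tissue, last among its 10 leading genes, held 659 nuclei or 5.30% of HH and 74 or 2.04% of CC, with 6.67% of H. A cluster led by cell cycle genes held 323 nuclei or 2.60% of HH and 11 or 0.304% of CC, with 0.449% of C, 0.392% of CCC and 4.23% of H. Both were larger shares in the 2 HFD libraries than in the 3 chow libraries. A further unnamed cluster held 889 nuclei or 21.8% of CCC against 2.84% of CC and 0.209% of HH, which lowers the shares of every named class in CCC.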
